A study of Mus musculus with 9 samples.

Results

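The genes described here encode the proteasome: the subunits of its 20S core (Psma and Psmb genes), of its 19S cap (Psmc and Psmd genes), the activators of the Psme family, the inhibitor Psmf1, and the assembly factors of the Psmg family with Pomp. They were chosen by symbol alone, as every gene of the families Psma to Psmg, Adrm1 or Pomp that has a probe set (a group of array probes read as 1 value) annotated to that gene only. Of 19938 genes with such a probe set, 49 were members, and Adrm1, a ubiquitin receptor of the 19S cap, had none. The probe set with the highest mean stood for each gene. A low-value filter asked for 3 of the 9 arrays above the 40th percentile, which 48 members met, and these were tested. The remaining one, Psma8, an alpha subunit known from testis, averaged 4.20 over the wild type arrays, 4.27 over those of Th3/+ and 4.38 over those of Th3/Th3 (log2) and was not tested.

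Expression was measured on whole-transcript arrays in erythroblasts, the nucleated precursors of red cells. They were sorted from fetal liver at embryonic day E14.5 as CD71+Ter119+FSChigh cells, that is, cells with the transferrin receptor and a red cell surface marker and with high forward scatter. The embryos came from crosses of Th3/+ parents and were wild type, Th3/+ or Th3/Th3, with 3 arrays per genotype. The Th3 allele has lost the adult beta-globin genes. It was made in 129SV, then crossed back to C57BL/6 over 9 generations, and is carried in every cell, not only in the erythroid lineage. Th3/+ embryos keep 1 intact adult locus and Th3/Th3 embryos none, so that adult beta-globin chains are reduced in the former and cannot be made in the latter. The labels do not tell single embryos from pools among the replicates, so the p-values measure the spread between these samples.

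The 26S proteasome is the main protease of the cytosol and nucleus and degrades proteins tagged with ubiquitin. Its 20S core is a barrel of alpha rings at the ends and beta rings in the middle, and 3 of the constitutive beta subunits, Psmb5, Psmb6 and Psmb7, carry the active sites. The 19S cap binds ubiquitin chains, removes them, and unfolds the substrate with a ring of ATPases. In beta-thalassemia, alpha-globin chains are left without a partner, and the proteasome is known to take part in clearing such free chains from erythroid cells.

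The arrays were on a common scale, with medians from 4.97 to 5.05 (log2), and replicates of a genotype had rank correlations of 0.986 to 0.994. A probe set shared by the adult beta-globin genes averaged 13.84 ± 0.03 (SD, n = 3) on the wild type arrays, 13.77 ± 0.03 on those of Th3/+ and 9.47 ± 0.86 on those of Th3/Th3, so the homozygous arrays matched their labels. Its Th3/+ arrays (13.755 to 13.809) all read slightly below its wild type arrays (13.812 to 13.863). A second shared probe set did the same (13.68 to 13.74, against 13.76 to 13.82). The fitted difference of -0.07 was small beside its SE of 0.33, which pools the genotypes and so includes the wide Th3/Th3 spread. These values lie near the highest on the arrays (14.03 to 14.20), where small differences are hard to read. Th3/+ replicate 1 and Th3/Th3 replicate 1 lay apart from the others on the second principal component (20.5 and 25.5, against at most 7.71 on the other arrays), and results that rest on them are also given without them. Erythroid genes such as Slc4a1, the anion exchanger band 3, and Alas2, the first enzyme of erythroid heme synthesis, were at 12.99 and 12.68 (means, log2) in wild type. The mean level of 9 erythroblast markers lay between 11.31 and 11.41 on the wild type arrays, between 11.23 and 11.31 on the Th3/+ arrays and between 10.53 and 10.82 on the Th3/Th3 arrays. Against wild type, 7 of the 9 fell in Th3/Th3 (limma, adjusted p under 0.05), as 4.98% of all probe sets tested did, with a median of -0.66. Tfrc, which encodes the sorting marker CD71, fell by 1.12 on the log2 scale (adjusted p = 0.000192), and Hemgn, an erythroid nuclear protein, fell by 0.84 (adjusted p = 0.000392). In such bulk samples, fewer cells of a type and less RNA per cell cannot be told apart.

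Proteasome genes were higher in Th3/Th3 than in wild type erythroblasts across the core and the cap. Of the 48 members tested, 26 rose and 1 fell (limma, adjusted p under 0.05 over all 17742 probe sets tested), and the median difference was 0.55 (log2). Over all probe sets tested, 7.31% rose and 4.98% fell (12.3% in either direction), and the median difference was 0.00. The members that rose ranged from Psmc5, a 19S ATPase, at 1.32-fold, to Psmb3, a structural beta subunit, at 2.46-fold, and 20 of them were raised at least 1.5-fold (5.36% of all probe sets were raised as much and called). On all 26, every Th3/Th3 array read above every wild type array. Counting also the members that did not pass the test, the 3 Th3/Th3 arrays lay above the 3 wild type arrays on 32 of the 48, against 15.4% of all probe sets, and below them on 2, Psme3 and Psmb11, against 12.1%. The median over the members, relative to each gene's wild type mean, was -0.07, -0.07 and 0.13 on the wild type arrays, 0.06, 0.26 and 0.30 on the Th3/+ arrays and 0.51, 0.58 and 0.59 on the Th3/Th3 arrays (log2). The Th3/Th3 arrays were close to each other by this measure, whereas Th3/+ replicate 1 lay within the wild type range.

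In Th3/Th3 against wild type, the level of erythroblast markers, and of macrophage markers, moved in the direction opposite to the proteasome genes. In Th3/+ against wild type, 7 of 13 macrophage markers tested were higher and 6 lower, with a median difference of 0.07 and none called. Of 13 macrophage markers tested, 3 fell in Th3/Th3 (C1qb, Fcer1g and Tyrobp), against 4.98% of all probe sets. The mean level of the 15 macrophage markers measured was 5.20 to 5.53 on the wild type, 5.13 to 5.78 on the Th3/+ and 4.90 to 4.98 on the Th3/Th3 arrays, with the defining receptor gene Csf1r under the low-value filter. The part of either change in the proteasome result was not tested. Markers of granulocytes and mast cells (5 tested), megakaryocytes (4), hepatoblasts (7) and lymphoid cells (1 of 7 measured) had no member called. Still, the mean level of the megakaryocyte markers was 7.26 to 7.61 on the wild type, 7.34 to 7.59 on the Th3/+ and 6.92 to 7.14 on the Th3/Th3 arrays. Their median difference in Th3/Th3 was -0.38, and 2 of 4 had an unadjusted p under 0.05 (limma), against 4567 of 17742 probe sets. The part of this difference in the proteasome result was not tested.

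**Figure D1:**
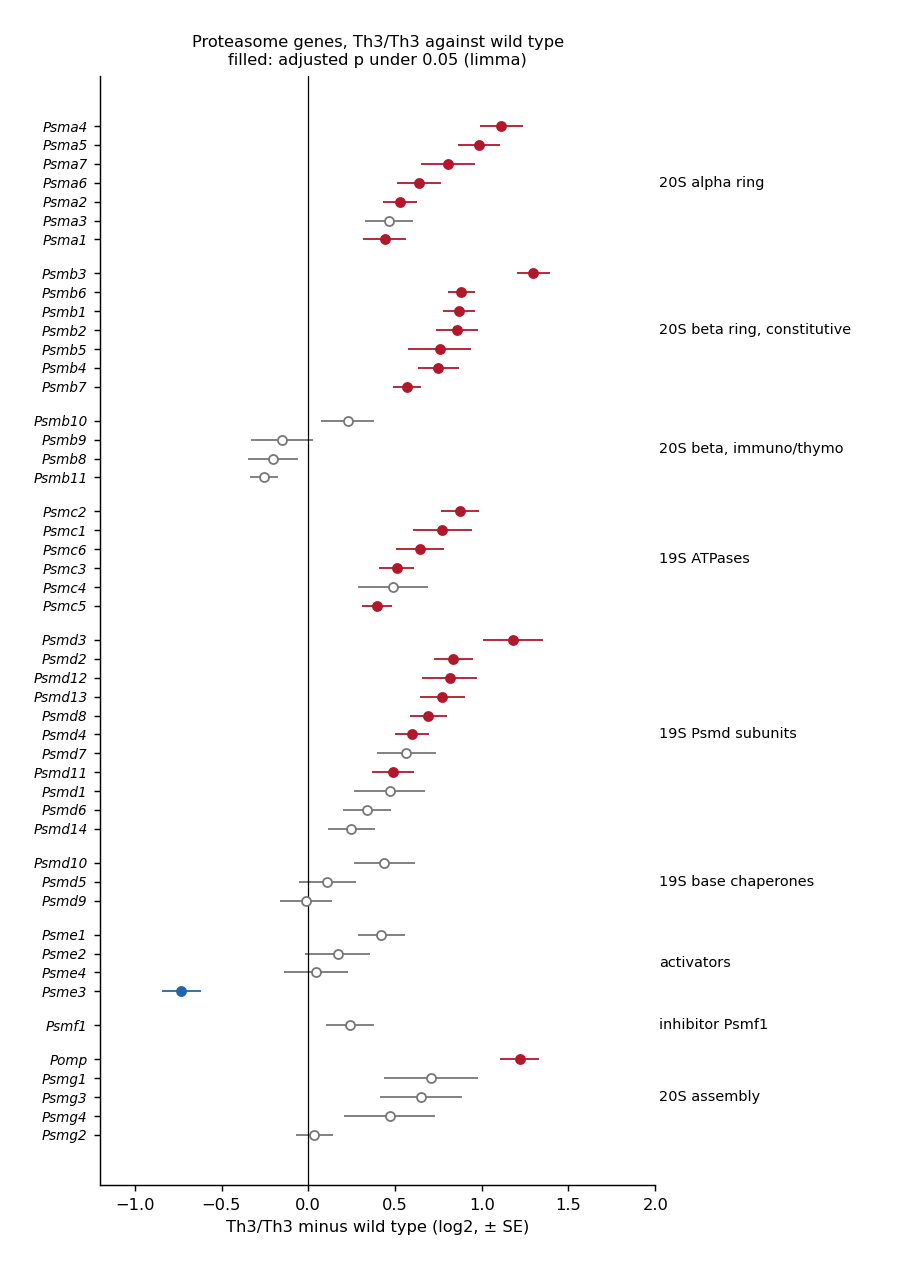
Difference between Th3/Th3 and wild type (log2, horizontal axis, mean difference ± SE from limma, n = 3 arrays per genotype) for the 48 proteasome genes tested, grouped by their place in the particle. Filled points passed an adjusted p under 0.05, in red where higher and blue where lower in Th3/Th3. All 7 constitutive beta subunits are filled, from 0.57 to 1.30, while the immunoproteasome and thymoproteasome subunits lie between -0.26 and 0.23.

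Because so many subunits differed together, the promoters of some of them are shown, as the 250 bases before the RefSeq start of the gene in GRCm38.p6, read 5′ to 3′ on the gene's strand. Those printed are Psmb3 and Pomp, which had the largest rises, Psmb6 and Psmb5, catalytic subunits that rose and that hold a match to a motif named below, and Psme3, the member that fell. Capitals mark matches to 3 motifs, each searched on both strands: TGACNNNGC, the core of the antioxidant response element that the factors NRF1 and NRF2 bind, CCAAT, the box bound by NF-Y, and GAANNTTC, a core of the heat shock element. No matches overlap in the windows printed. Psmb3 lies at chr11:97703184-97703433 on the plus strand, Psmb6 at chr11:70525107-70525356 on the plus strand, Psmb5 at chr14:54617996-54618245 on the minus strand, Pomp at chr5:147860378-147860627 on the plus strand and Psme3 at chr11:101315963-101316212 on the plus strand.
Psmb3: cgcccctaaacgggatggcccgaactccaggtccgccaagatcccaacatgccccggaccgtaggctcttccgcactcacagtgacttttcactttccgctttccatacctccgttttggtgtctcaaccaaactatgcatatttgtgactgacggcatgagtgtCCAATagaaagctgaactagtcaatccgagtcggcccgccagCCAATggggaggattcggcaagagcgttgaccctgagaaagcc
Psmb6: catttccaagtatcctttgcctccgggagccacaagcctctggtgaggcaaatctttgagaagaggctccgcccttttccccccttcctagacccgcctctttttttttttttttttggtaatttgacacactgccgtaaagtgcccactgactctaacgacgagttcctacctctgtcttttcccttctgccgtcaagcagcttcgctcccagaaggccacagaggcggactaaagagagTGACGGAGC
Psmb5: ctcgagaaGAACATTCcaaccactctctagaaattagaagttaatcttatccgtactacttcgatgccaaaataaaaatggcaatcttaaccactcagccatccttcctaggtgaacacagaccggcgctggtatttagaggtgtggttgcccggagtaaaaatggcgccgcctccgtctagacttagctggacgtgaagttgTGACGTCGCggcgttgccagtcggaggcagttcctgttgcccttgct
Pomp: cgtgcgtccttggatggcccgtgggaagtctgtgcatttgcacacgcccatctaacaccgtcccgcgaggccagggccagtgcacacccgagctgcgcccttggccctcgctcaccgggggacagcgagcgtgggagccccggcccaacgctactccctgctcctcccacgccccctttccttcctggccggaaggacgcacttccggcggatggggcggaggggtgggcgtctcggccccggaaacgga
Psme3: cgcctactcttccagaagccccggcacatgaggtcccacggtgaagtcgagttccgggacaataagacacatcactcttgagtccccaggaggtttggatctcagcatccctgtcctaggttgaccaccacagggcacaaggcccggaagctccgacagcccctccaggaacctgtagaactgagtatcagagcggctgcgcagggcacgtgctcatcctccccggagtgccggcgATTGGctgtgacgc

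Psmb3 has CCAAT boxes that begin 85 and 43 bases before the start. Psmb6 has the antioxidant core directly before the start, from base 9 to base 1, and Psmb5 has it from base 47 to base 39 with a heat shock core from base 242 to base 235. Pomp, among the members with the largest rises, has none of the 3 motifs in this window. Psme3 has a CCAAT box on the minus strand (ATTGG as printed), from base 14 to base 10. Of the 49 members, 41 had a promoter in the RefSeq table. Psma8, Psmb1, Psmb2, Psmb7, Psmc3, Psmd3, Psmd7 and Psmg2 did not. The antioxidant core was present in 5 of the 41 (12.2%), against 11.5% of 27025 genes in the table. Those 5 were Psmb5, Psmb6, Psmc6, Psmd12 and Psmd9, and the first 4 rose in Th3/Th3. CCAAT was present in 14 members (34.1%, against 37.5% of all genes) and the heat shock core in 3, Psmb5, Psmb9 and Psmf1 (7.32%, against 7.73%). Over all members the shares therefore lay close to those of all genes, while they varied between small groups of members. The antioxidant core was in 4 of 21 raised members (19%) and 1 of 20 not raised (5%). CCAAT was in 8 of 15 genes of the 20S core (53.3%), 5 of 17 of the cap (29.4%), 1 of 4 activators and 0 of 4 assembly factors. No such difference was tested, and a match is a description of letters in this window only.

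In the 20S core, 13 of 18 genes tested rose and none fell in Th3/Th3, with a median difference of 0.69 (log2). Of all probe sets tested, 7.31% rose and 4.98% fell, and these shares also stand beside the counts of the rings. In the outer rings, 6 of 7 alpha subunits rose, with a median of 0.64. In the inner rings, all 7 constitutive beta subunits rose, with a median of 0.86. The exception in the alpha ring was Psma3, whose difference was 0.47 (adjusted p = 0.0597), with its Th3/Th3 arrays all above its wild type arrays.

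Psmb3, a structural subunit of the beta ring, had the largest difference of any member. It read 10.64, 10.67 and 10.50 on the wild type arrays, 10.81, 10.57 and 10.85 on the Th3/+ arrays and 11.87, 11.96 and 11.87 on the Th3/Th3 arrays (log2). The wild type and Th3/+ arrays overlapped, and the Th3/Th3 arrays all lay more than 1 log2 unit above both. The difference from wild type was 1.30 (SE 0.09, adjusted p = 8.72e-05). A second probe set annotated to Psmb3 gave 1.74 (adjusted p = 4.62e-05).

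Psma4, an alpha subunit, read 9.32, 9.17 and 9.19 in wild type, 9.35, 9.54 and 9.54 in the heterozygotes and 10.14, 10.36 and 10.50 in the homozygotes. Its 3 groups did not overlap, and the Th3/+ arrays lay much nearer to wild type. The difference between Th3/Th3 and wild type was 1.11 (SE 0.12, adjusted p = 0.000717). Psma5, another alpha subunit, rose by 0.98 (adjusted p = 0.0012) and by 0.93 on its other probe set. Psma7 rose by 0.81, Psma6 by 0.64, Psma2 by 0.53 and Psma1 by 0.44.

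Among the catalytic subunits, Psmb6, which carries the caspase-like site, read 11.48, 11.60 and 11.59 on the wild type arrays, 11.84, 11.86 and 11.97 on the Th3/+ arrays and 12.57, 12.43 and 12.31 on the Th3/Th3 arrays. The groups formed 3 separate steps, and the difference between Th3/Th3 and wild type was 0.88 (SE 0.08, adjusted p = 0.000233). Psmb7, with the trypsin-like site, read 11.13, 11.27 and 11.33 for wild type, 11.50, 11.58 and 11.64 for Th3/+ and 11.91, 11.75 and 11.79 for Th3/Th3. It too rose in separate steps, and its difference of 0.57 (SE 0.08, adjusted p = 0.00209) was the smallest among the constitutive beta subunits. Psmb5, with the chymotrypsin-like site that the drug bortezomib inhibits, read 11.29, 11.16 and 11.73 in wild type, 11.29, 11.57 and 11.87 in the heterozygotes and 12.00, 12.39 and 12.07 in the homozygotes. Wild type and Th3/+ overlapped and spread widely, while the Th3/Th3 arrays lay above both. Its difference was 0.76 (SE 0.18, adjusted p = 0.0263). The structural subunits Psmb1, Psmb2 and Psmb4 rose by 0.87, 0.86 and 0.75.

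The calls on Psmb5 and Psma1 were lost in some fits that left out 1 array, and also on all 9 arrays with sex by Xist as a covariate (adjusted p = 0.0516 and 0.0537). Psmb5 did not pass without wild type replicate 1 (adjusted p = 0.092) or 2 (0.0959), nor without Th3/Th3 replicate 2 (0.093) or 3 (0.0584). Psma1 (adjusted p = 0.0455 on all arrays) did not pass in 7 of 9 such fits, being called only without wild type replicate 3 and without Th3/+ replicate 1. Its difference was 0.32 without wild type replicate 1 (adjusted p = 0.129), and the adjusted p without wild type replicate 2, Th3/+ replicates 2 and 3, and Th3/Th3 replicates 1, 2 and 3 was 0.0851, 0.0719, 0.0547, 0.0894, 0.0924 and 0.117. On all arrays it was also lost with no filter on low values (0.0722), with no variance trend (0.0549) and with arrays centred on their medians (0.0613). Psma3, not called on all arrays, passed without Th3/+ replicate 1 (0.0429) and without Th3/Th3 replicate 1 (0.0358). On all arrays it passed with the 60th percentile filter (0.0393), quantile normalization (0.0273), the replicate block (0.00366) and the mean of its probe sets (0.0461), and its other 2 probe sets passed on all arrays (0.48 each, adjusted p = 0.0437 and 0.0403). For Psma3, Psma5, Psmb3, Psmc1 and Psmd2, which have several probe sets, the files do not say which of them read the gene itself and which a near-identical copy. Such copies of proteasome genes are known in the genome. The probe set that stood for each gene was chosen by its mean alone and may also be the one that reads a copy. All values of these 5 genes are uncertain to that extent.

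**Figure D2:**
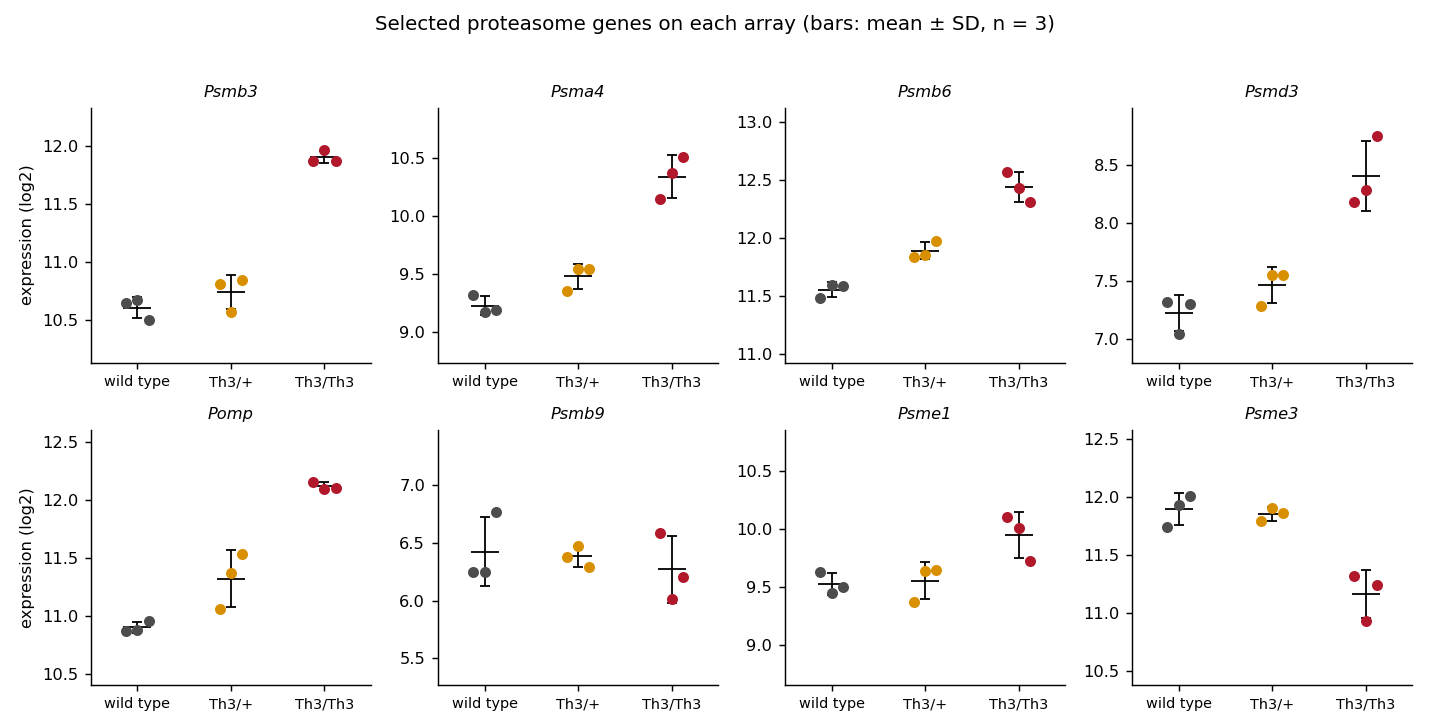
Values of 8 proteasome genes (log2, vertical axis, all panels spanning the same range around their own centres) on each of the 9 arrays, by genotype, with the mean ± SD of 3 arrays. The Th3/Th3 points stand above both other groups for Psmb3, Psma4, Psmb6, Psmd3, Pomp and Psme1, below both for Psme3, and among them for Psmb9.

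The subunits of the immunoproteasome and thymoproteasome did not pass the test: none of 4 was called, the median difference was -0.18, and 1 of the 4 (Psmb11) had an unadjusted p under 0.05, as 4567 of all 17742 probe sets did in this comparison. Psmb8, Psmb9 and Psmb10 are induced by interferon and replace Psmb5, Psmb6 and Psmb7 at the active sites, and Psmb11 does so in the thymic cortex. Psmb9 read 6.25, 6.24 and 6.77 on the wild type arrays, 6.38, 6.47 and 6.29 on the Th3/+ arrays and 6.59, 6.02 and 6.21 on the Th3/Th3 arrays, with a difference of -0.15 (SE 0.18, adjusted p = 0.671). Psmb10 read 6.38, 6.36 and 6.26 for wild type, 6.38, 6.17 and 6.58 for Th3/+ and 6.38, 6.88 and 6.42 for Th3/Th3, with a difference of 0.23 (SE 0.15, adjusted p = 0.41). The genotypes overlapped for both. Psmb8 read 5.04, 4.59 and 4.41 in wild type, 4.71, 4.59 and 4.53 in the heterozygotes and 4.55, 4.54 and 4.35 in the homozygotes, with a difference of -0.20 (SE 0.14, adjusted p = 0.434). Psmb11, the lowest difference of the core, read 4.92, 4.83 and 4.88 on the wild type arrays, 5.03, 4.90 and 4.85 on the Th3/+ arrays and 4.49, 4.64 and 4.73 on the Th3/Th3 arrays, with a difference of -0.26 (SE 0.08, adjusted p = 0.0744). Both of these lay near the 40th percentile of the arrays, 4.52 to 4.62, where a difference of this size says little about the transcript.

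Each catalytic subunit was then set against its interferon-induced counterpart on the same array, as a log2 difference relative to its wild type mean. Psmb5 minus Psmb8 stood at -0.47, -0.14 and 0.61 for wild type, -0.13, 0.27 and 0.63 for Th3/+ and 0.74, 1.13 and 1.01 for Th3/Th3. Psmb6 minus Psmb9 stood at 0.10, 0.22 and -0.32 in wild type, 0.33, 0.25 and 0.55 in the heterozygotes and 0.85, 1.28 and 0.97 in the homozygotes. For these pairs every Th3/Th3 array lay above every wild type and Th3/+ array. The same held for Psmb5 and Psmb6 alone, so this separation is not a further result. The second pair had a mean of 1.03 ± 0.22 in Th3/Th3 against a wild type SD of 0.28 (n = 3 each). Psmb6 alone differed by 0.88 and Psmb9, not called, by -0.15. For the first no size of change is given, since Psmb8 read near the 40th percentile and the wild type SD of the pair was 0.55. Psmb7 minus Psmb10 stood at -0.16, -0.01 and 0.17 on the wild type arrays, 0.20, 0.50 and 0.15 on the Th3/+ arrays and 0.61, -0.04 and 0.45 on the Th3/Th3 arrays. This pair overlapped between genotypes, and its Th3/Th3 mean of 0.34 ± 0.34 (wild type SD 0.16) was about the size of its own SD. The genes that interferon gamma and antigen presentation share with Psmb8 to Psmb10 had none of 8 called (limma) and 1 with an unadjusted p under 0.05, with a median difference of -0.14. Their mean level over 9 measured genes was 6.15 to 6.31 for wild type, 6.02 to 6.16 for Th3/+ and 5.98 to 6.03 for Th3/Th3. The smallest p among them was that of Ifit1, an interferon-induced RNA-binding protein, at -0.68 (adjusted p = 0.104), and next came Irf1, an interferon regulatory factor, at -0.15 (adjusted p = 0.227).

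**Figure D3:**
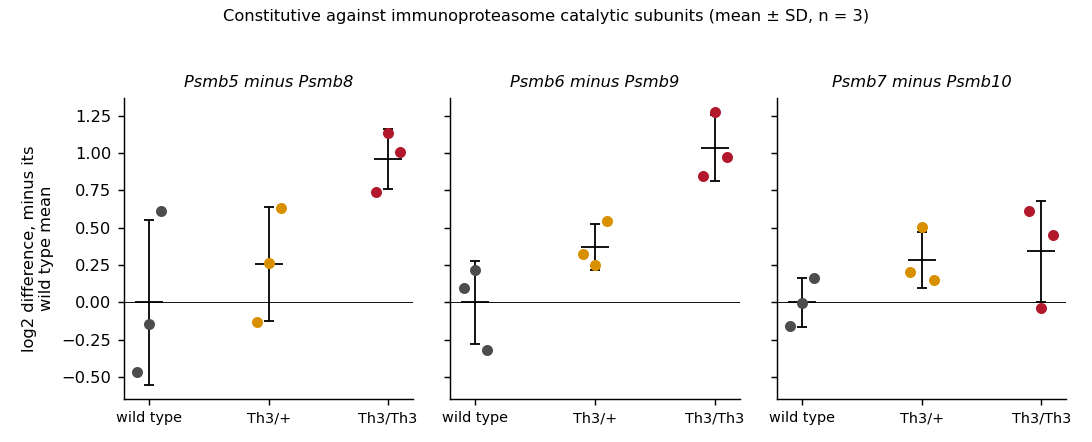
Log2 difference between each constitutive catalytic subunit and its immunoproteasome counterpart on each array, relative to the wild type mean of that difference (vertical axis), by genotype, with the mean ± SD of 3 arrays. The Th3/Th3 points lie above all others for Psmb5 minus Psmb8 (0.74 to 1.13) and Psmb6 minus Psmb9 (0.85 to 1.28), and overlap with the others for Psmb7 minus Psmb10. Psmb8 read near the 40th percentile, so the size of its pair is uncertain.

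The 19S cap rose as well: 12 of its 20 genes were higher in Th3/Th3 and none lower, with a median difference of 0.54. Of all probe sets tested, 7.31% were higher and 4.98% lower, and these shares also stand beside the counts of its parts. Of the 6 ATPases that unfold substrates, 5 rose, with a median of 0.58. Of the 11 Psmd subunits that form the scaffold, the lid and the ubiquitin-binding and deubiquitinating parts, 7 rose, with a median of 0.60. The 3 chaperones that help to assemble the base of the cap, Psmd5, Psmd9 and Psmd10, had none called (limma) and a median of 0.11. Of the 3, Psmd10 had an unadjusted p under 0.05, as 4567 of all 17742 probe sets did.

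Psmd3, a lid subunit, had the largest difference of the cap. It read 7.32, 7.04 and 7.30 for wild type, 7.28, 7.55 and 7.55 for Th3/+ and 8.18, 8.28 and 8.74 for Th3/Th3. Th3/+ overlapped with wild type, and all Th3/Th3 arrays lay above both. The difference was 1.18 (SE 0.17, adjusted p = 0.00255). Psmc2, an ATPase, read 9.80, 9.87 and 10.12 in wild type, 10.19, 10.39 and 10.35 in the heterozygotes and 10.79, 10.78 and 10.84 in the homozygotes. The groups rose in 3 separate steps, with the Th3/Th3 arrays within 0.1 of each other, and the difference was 0.87 (SE 0.11, adjusted p = 0.00128).

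The lowest difference of the cap was that of Psmd9, a base chaperone, which read 9.22, 9.16 and 9.41 on the wild type arrays, 8.94, 9.25 and 9.27 on the Th3/+ arrays and 9.34, 9.39 and 9.02 on the Th3/Th3 arrays. Its genotypes overlapped fully, and its difference was -0.01 (SE 0.15, adjusted p = 0.976). The other base chaperones were at 0.11 for Psmd5 (adjusted p = 0.744) and 0.44 for Psmd10 (adjusted p = 0.152). The Psmd subunits that rose besides Psmd3 were Psmd2 by 0.84, Psmd12 by 0.81, Psmd13 by 0.77, Psmd8 by 0.69, Psmd4, a ubiquitin receptor, by 0.60 and Psmd11 by 0.49. Those not called were Psmd7 at 0.57, Psmd1 at 0.47, Psmd6 at 0.34 and Psmd14, the deubiquitinase of the lid, at 0.25. Of the other ATPases, Psmc1 rose by 0.77, Psmc6 by 0.65, Psmc3 by 0.51 and Psmc5 by 0.40, and Psmc4 was at 0.49 without passing (adjusted p = 0.16).

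Of the 12 calls in the cap, 8 held in every fit that left out 1 array. Psmc1 did not pass without wild type replicate 1 (adjusted p = 0.0541) or 3 (0.0599), and Psmc5 without wild type replicates 1 (0.0588) and 2 (0.0567) or Th3/Th3 replicate 3 (0.0542). Psmc6 did not pass without wild type replicates 1 (0.0562) and 3 (0.0532) or Th3/Th3 replicate 2 (0.0505). Psmd11 did not pass without wild type replicate 1, 2 or 3 (0.0754, 0.0753 and 0.0709) or Th3/Th3 replicate 2 (0.083) or 3 (0.0714), nor on all arrays with sex as a covariate (0.0632). Psmd7 passed without Th3/Th3 replicate 1, where its difference was 0.70 (0.0294), and on all arrays with the 60th percentile filter (0.0395), quantile normalization (0.0333) and the replicate block (0.0382). Psmd1 passed with the replicate block (0.0275) and without both Th3/+ replicate 1 and Th3/Th3 replicate 1 (0.0219). The second probe sets of Psmc1 and Psmd2 rose by 0.51 (adjusted p = 0.0341) and 0.58 (0.0489).

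**Figure D4:**
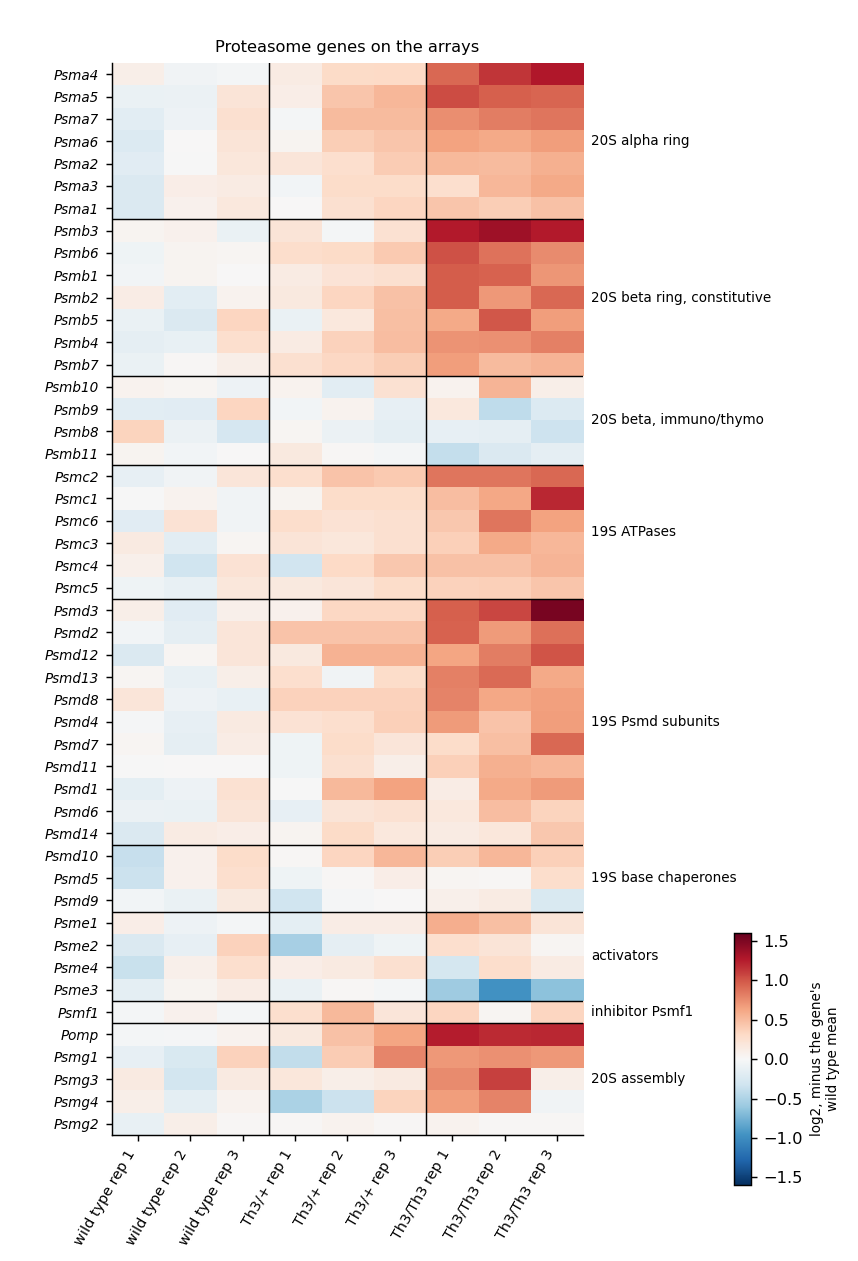
Values of the 48 proteasome genes on the 9 arrays (columns), as log2 differences from each gene's wild type mean (symmetric colour scale around 0), ordered by class and by their difference in Th3/Th3. The red block on the Th3/Th3 arrays covers the alpha ring, the constitutive beta ring, the ATPases, most Psmd subunits and Pomp, whereas the row of Psme3 is blue on those arrays.

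Among the 4 activators tested, none rose in Th3/Th3 and 1, Psme3, fell, with a median difference of 0.11. Of all probe sets tested, 7.31% rose and 4.98% fell, so counts in 4 genes say little about the group. Psme3 encodes PA28 gamma, a nuclear activator that opens the core independently of ubiquitin. It read 11.74, 11.94 and 12.01 for wild type, 11.79, 11.91 and 11.87 for Th3/+ and 11.32, 10.93 and 11.24 for Th3/Th3. The Th3/+ values lay inside the wild type range, and the Th3/Th3 values all lay below both. Relative to wild type, the homozygotes had a 1.66-fold lower value (difference -0.73, SE 0.11, adjusted p = 0.00319), and this held in all 9 fits that left out 1 array.

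Psme1 and Psme2 encode the subunits of PA28, an activator that interferon induces. Psme1 read 9.63, 9.45 and 9.50 in wild type, 9.37, 9.64 and 9.65 in the heterozygotes and 10.10, 10.01 and 9.72 in the homozygotes. Its Th3/Th3 arrays lay above all others, and its difference of 0.42 (SE 0.14, adjusted p = 0.0778) passed only without Th3/Th3 replicate 3 (0.53, adjusted p = 0.0434). Psme2 read 8.83, 8.94 and 9.43 on the wild type arrays, 8.54, 8.92 and 8.99 on the Th3/+ arrays and 9.33, 9.28 and 9.10 on the Th3/Th3 arrays, and the genotypes overlapped (0.17, SE 0.19, adjusted p = 0.638). A probe set shared by Psme2 and its copy Psme2b stood at -0.04. Psme4, which encodes the activator PA200, read 9.52, 9.96 and 10.15 for wild type, 9.99, 10.02 and 10.14 for Th3/+ and 9.60, 10.16 and 10.01 for Th3/Th3 (0.04, SE 0.19, adjusted p = 0.919), again with full overlap. The inhibitor Psmf1, known as PI31, read 7.73, 7.83 and 7.74 in wild type, 8.03, 8.28 and 7.96 in the heterozygotes and 8.11, 7.79 and 8.11 in the homozygotes. Its Th3/+ arrays all lay above wild type, but its Th3/Th3 arrays did not (0.24, SE 0.14, adjusted p = 0.331).

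Of the 5 assembly factors of the core, only Pomp passed, although the median of the group was 0.65. As 7.31% of all probe sets tested rose, a count of 1 in 5 genes says little about the group. Pomp, the maturation protein that is itself degraded once the core is complete, read 10.87, 10.88 and 10.96 on the wild type arrays, 11.06, 11.38 and 11.54 on the Th3/+ arrays and 12.16, 12.09 and 12.11 on the Th3/Th3 arrays. Wild type and Th3/Th3 were each tight, Th3/+ was spread between them, and the 3 groups did not overlap. The difference between Th3/Th3 and wild type was 1.22 (SE 0.11, adjusted p = 0.000265), or 2.33-fold.

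The Psmg genes encode chaperones of the alpha ring, which work as the pairs Psmg1 with Psmg2 and Psmg3 with Psmg4. Psmg1 read 6.29, 6.18 and 6.79 for wild type, 6.03, 6.82 and 7.20 for Th3/+ and 7.12, 7.16 and 7.11 for Th3/Th3 (0.71, SE 0.27, adjusted p = 0.136). Its partner Psmg2 read 7.38, 7.59 and 7.52 in wild type, 7.52, 7.56 and 7.52 in the heterozygotes and 7.56, 7.52 and 7.52 in the homozygotes (0.04, SE 0.11, adjusted p = 0.88). Psmg1 was uneven in Th3/+, and Psmg2 was at nearly the same value on all 9 arrays. For Psmg2, however, wild type replicate 3 and Th3/Th3 replicates 2 and 3 were equal to the last digit deposited (7.52405). The closeness of those values is therefore not a measure of biological spread. Psmg3 read 7.37, 6.92 and 7.37 on the wild type arrays, 7.40, 7.32 and 7.36 on the Th3/+ arrays and 7.98, 8.32 and 7.32 on the Th3/Th3 arrays (0.65, SE 0.24, adjusted p = 0.114). Psmg4 read 6.52, 6.27 and 6.48 for wild type, 5.92, 6.08 and 6.77 for Th3/+ and 7.09, 7.21 and 6.37 for Th3/Th3 (0.47, SE 0.26, adjusted p = 0.307). On both Psmg3 and Psmg4, Th3/Th3 replicates 1 and 2 were high and replicate 3 was not. Without that array Psmg3 passed (0.93, adjusted p = 0.016), and without Th3/+ replicate 1 Psmg1 did (0.71, adjusted p = 0.0346), so that 2 of 5 were then called in each case.

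**Figure D5:**
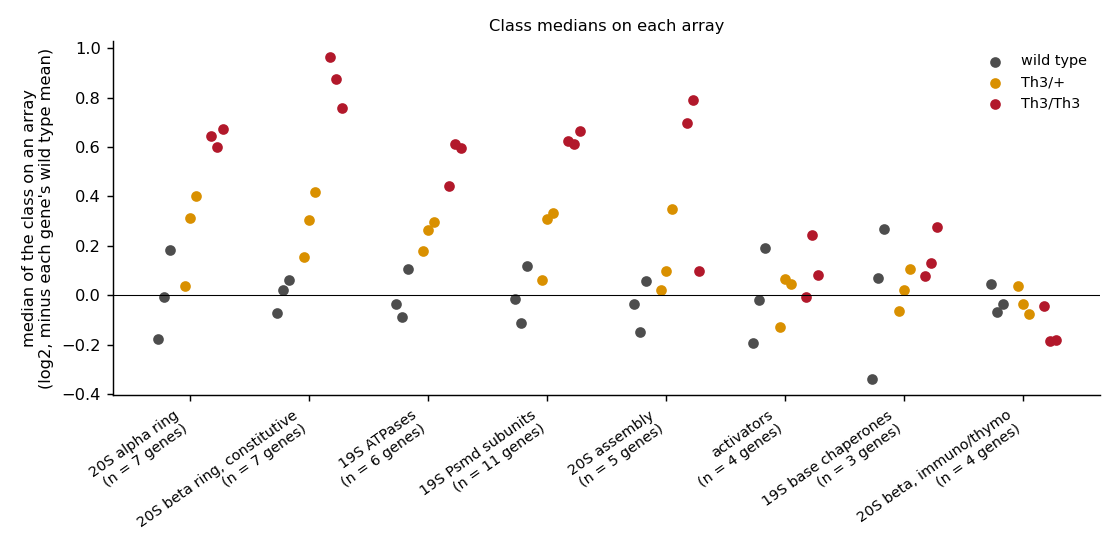
Median of each class of proteasome genes on each array, as log2 relative to each gene's wild type mean (vertical axis), by genotype, with the number of genes per class on the horizontal axis. The Th3/Th3 arrays lie above all others for the alpha ring (0.60 to 0.67), the constitutive beta ring (0.76 to 0.96), the ATPases (0.44 to 0.61) and the Psmd subunits (0.61 to 0.67), while Th3/Th3 replicate 3 stands at 0.10 for the assembly factors.

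Between Th3/+ and wild type, no member passed the test. At an unadjusted p under 0.05 there were 15 of 48, against 645 of 17742 probe sets, and 5 of all probe sets were called, all higher (0.0282%). The median difference of the members was 0.21, against 0.00 over all probe sets. The higher mean was in Th3/+ for 42 of 48 members and for 9206 of 17742 probe sets. The 3 Th3/+ arrays lay above the 3 wild type arrays on 14 members and below them on none, against 4.4% and 3.22% of all probe sets. On 13 of these (the exception is Psmf1), the Th3/Th3 arrays also lay above the Th3/+ arrays, giving 3 separate rising steps, which 1.52% of all probe sets showed. They were Psma2, Psma4, Psmb1, Psmb2, Psmb6, Psmb7, Psmc2, Psmc3, Psmc6, Psmd2, Psmd4, Psmd8 and Pomp, chosen here for that pattern. The smallest p was that of Psmb6, with a difference of 0.34 (SE 0.08, unadjusted p = 0.00179, adjusted p = 0.674), and next came Psmb7 with 0.33 (SE 0.08, adjusted p = 0.734). The largest difference among the 14 members compared one by one in Th3/+ was that of Psmd2, a scaffold subunit of the cap, at 0.45 (SE 0.11, adjusted p = 0.811). Psmd2 read 10.00, 9.90 and 10.24 on the wild type arrays, 10.50 on each of the 3 Th3/+ arrays and 10.99, 10.73 and 10.93 in Th3/Th3. The Th3/+ values were equal to the last digit deposited, as values on 2 or more arrays were for 8 of the 48 members, so their SD of 0 is not a measure of biological spread. The 8 members were Psmb10, Psmd2, Psmd3, Psmd6, Psmd8, Psmd10, Psmg2 and Psmg3.

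Between Th3/Th3 and Th3/+, 10 members rose and 1, Psme3, fell, against 4.01% and 3.26% of all probe sets (7.27% in either direction), with a median difference of 0.37. This comparison shares its Th3/Th3 arrays with the one against wild type. The largest differences were those of Psmb3 at 1.16 (SE 0.09, adjusted p = 0.000359), Psmd3 at 0.94 (SE 0.17, adjusted p = 0.0118), Psma4 at 0.86 (SE 0.12, adjusted p = 0.00425) and Pomp at 0.80 (SE 0.11, adjusted p = 0.0038). Psmb1 (0.66), Psma5 (0.62), Psmd13 (0.61), Psmb6 (0.55), Psmb2 (0.54) and Psmc2 (0.49) also passed. Psme3 stood at -0.69 (SE 0.11, adjusted p = 0.00661). Without both Th3/+ replicate 1 and Th3/Th3 replicate 1, the arrays that stood apart, 6 members rose rather than 10 and the median was 0.27, with Psma5 (adjusted p = 0.0688), Psmb2 (0.148), Psmc2 (0.102) and Psmd13 (0.072) not passing, while 28 rose against wild type. Psmb2 (0.0696), Psmc2 (0.0531) and Psmd13 (0.0505) did not pass on all 9 arrays with sex as a covariate either. These 3 calls were also lost without single arrays, with adjusted p from 0.0509 to 0.095: Th3/+ replicates 1 and 2 and Th3/Th3 replicates 1 and 3 for Psmb2, Th3/+ replicates 1, 2 and 3 and Th3/Th3 replicates 2 and 3 for Psmc2, and Th3/+ replicate 2 and Th3/Th3 replicates 1 and 2 for Psmd13.

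The mean of Th3/+ lay between the other means for 42 of 48 members. The same was not counted over all probe sets, so how far this is particular to the members is not known. Against the midpoint of wild type and Th3/Th3, no member was called (limma), against 0.0789% of all probe sets (0.062% higher and 0.0169% lower). At an unadjusted p under 0.05 there were 6 of 48 members, against 1389 of 17742 probe sets. The median was -0.06. The largest deviation was that of Psmb3, at -0.51 (SE 0.08, adjusted p = 0.0766), where Th3/+ lay near wild type. Of the 48 members, 32 lay below the midpoint and 16 above it. The others with an unadjusted p under 0.05 (limma) were Psmd3 at -0.35, Psma4 at -0.30, Psmb1 at -0.23, Psmb11 at 0.18 and Psme3 at 0.33. The members with the smallest p for Th3/+ against wild type, Psmb6, Psmb7, Psmd2, Pomp, Psmc2 and Psmd8, deviated by -0.11, 0.04, 0.03, -0.19, -0.06 and 0.03. That choice favours genes with high Th3/+ values.

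Outside the particle, partners of the proteasome were counted in the same fit. Of 14 shuttle factors, deubiquitinases and associated proteins tested, 4 rose and none fell in Th3/Th3 (7.31% and 4.98% of all probe sets), with a median difference of 0.08. Txnl1, a thioredoxin-like protein bound to the cap, rose by 0.58 (SE 0.09, adjusted p = 0.00365), and Ubqln1, a shuttle that carries ubiquitinated proteins to it, rose by 0.91 (SE 0.18, adjusted p = 0.0102). Named after their values were seen, the others were Zfand2a, a cap-associated protein known from the response to arsenite, at 1.79 (SE 0.37, adjusted p = 0.0124), and the shuttle Rad23b at 0.81 (adjusted p = 0.0308). The deubiquitinases that trim chains at the cap, Usp14 and Uchl5, stood at -0.30 and 0.05 without passing. Rad23b did not pass without wild type replicate 1 (0.0943), 2 (0.098) or 3 (0.0632) or Th3/Th3 replicate 2 (0.0945) or 3 (0.0934).

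The p97 segregase, which pulls ubiquitinated proteins out of complexes and membranes ahead of the proteasome, and its cofactors were higher too. Of 12 genes tested, 7 rose and none fell (7.31% and 4.98% of all probe sets), with a median difference of 0.59. Ubxn4, a cofactor in the membrane of the endoplasmic reticulum, rose by 1.88 (SE 0.22, adjusted p = 0.000938), and Ufd1, which binds ubiquitin chains for p97, by 0.62 (SE 0.09, adjusted p = 0.00204). The other 5, named after their values were seen, were Nsfl1c (1.51), Plaa (1.37), Nploc4 (0.70), Ubxn1 (0.62) and Vcp, p97 itself (0.56). The count was 4 without wild type replicate 2 and 4 without Th3/Th3 replicate 3.

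Factors that regulate proteasome genes were measured at the level of the transcript only. Nfe2l1 encodes NRF1, which restores proteasome transcription when the protease is inhibited and is itself controlled largely through processing of its protein, and it stood at -0.02 (SE 0.16, adjusted p = 0.954). Nfe2l2, which encodes NRF2, stood at -0.11 (SE 0.21, adjusted p = 0.804). Of 11 genes tested 4 had an unadjusted p under 0.05, against 4567 of 17742 probe sets, and in the test none rose and 1 fell: Nfya, a DNA-binding subunit of NF-Y, by 0.70 on the log2 scale (SE 0.15, adjusted p = 0.0138). Maff, a small MAF partner of these factors, had the next smallest p, at 0.31 (adjusted p = 0.0796). Of the ubiquitin genes and the enzymes that activate ubiquitin, 1 of 6 had a probe set of its own, Uba6, at 0.10 (SE 0.09, adjusted p = 0.55).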

How the data were processed

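Per the submitters' processing notes, the only tool named is MAS5, without a version. The deposited log2 values, 1 per probe set and array, were used as the authors gave them; log2 is inferred from their range. The sources used here give neither the background correction nor the summary method. Platform annotation named the genes, and 6617 control probe sets were left out. Precision is limited by 3 arrays per genotype. Genotype means were fitted by a linear model to 17742 probe sets (above the 40th percentile of an array on at least 3 of 9) with limma 3.58.1 in R 4.3.3 (lmFit, eBayes with trend), two-sided, with Benjamini-Hochberg adjustment over all of them and a threshold of 0.05. An exact permutation test of 3 against 3 cannot go below 0.1. On simulated data for Th3/Th3 against wild type (17742 probe sets), 48% of 1.5-fold and 88% of 2-fold changes were recovered, with 7 false among 128 calls. The members, gene lists, tests and alternatives were chosen with earlier results of these data known. Values on every array were to be given for the 2 highest and the lowest differences of each group, Psmb5 to Psmb10 and all activators and assembly factors. Of each list, the 2 genes with the smallest p were named, and Nfe2l1 and Nfe2l2; others, and cell type markers, are examples outside that rule. Alternatives covered the filter, the variance trend, normalization, replicate block, sex, probe sets per gene and left-out arrays.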

Additional observations from a re-analysis of the deposited data

How the results depend on the processing

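Of the members, 26 rose in Th3/Th3 against wild type, and between 23 and 29 did under the alternatives that kept all arrays (23 with sex as a covariate, 29 with the replicate block), with Psme3 the 1 gene lower in each count. Leaving out 1 array gave 20 to 28 higher and 1 lower, with a median difference of 0.51 to 0.62, 11 to 14 genes of the core, 8 to 13 of the cap, 0 to 1 of the activators and 1 to 2 of the assembly factors higher, and 7 to 11 members higher than in Th3/+. Of 27 called members, 21 passed in all 9 of those fits. The count higher than in Th3/+ was 6 without both Th3/+ replicate 1 and Th3/Th3 replicate 1 and 14 with the replicate block or with quantile normalization. Correlations between the deviations of same-numbered arrays ran from -0.13 to 0.36. For replicates 1 and 3 each was above the highest correlation between differently numbered arrays of the same genotypes (at most 0.36 against 0.13). For replicate 2 they were mixed (-0.13 against 0.25 between wild type and Th3/+). A structure shared by number is therefore possible. The labels name no pairs, so the main fit had none, and the replicate block gives the counts with it. Over left-out arrays, 4 to 7 genes of the p97 list and 0 to 1 of the regulators were higher and 0 to 1 of the interferon genes lower. With quantile normalization and with the replicate block, 1 partner gene was lower; with quantile normalization, with arrays centred on their medians and without both arrays that stood apart, 1 regulator was higher; with the replicate block, 6 macrophage markers were lower. Against the midpoint, 1 member was lower with the 60th percentile filter, where fewer probe sets were tested. Values that changed sign were never called: Psmg2 at -0.054 with quantile normalization, Psmd9 at 0.00035 with centred arrays, Nfe2l1 at 0.04 and Nfe2l2 at 0.13 without both arrays. Over left-out arrays, sign changes were seen for Psmd5 (-0.061 to 0.24), Psme4 (-0.13 to 0.21), Psmg2 (-0.023 to 0.082), Psmb9 (-0.31 to 0.022), Psmd9 (-0.082 to 0.10), Nfe2l1 (-0.18 to 0.073) and Nfe2l2 (-0.24 to 0.13) in Th3/Th3 and for Psme3 in Th3/+ against wild type (-0.12 to 0.018). The causes were not tested.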
